A study of Sus scrofa with 9 samples.

Results

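The 10 Toll-like receptor genes, TLR1 to TLR10, were examined for the DNA mark 5-hydroxymethylcytosine (5hmC) in mesenchymal stem/stromal cells (MSCs) that had been grown from pig fat. They were selected by gene symbol, and all 10 of 10 were present both in the table for the diet groups, among 18933 genes, and in the table of vitamin-C-treated and untreated Obese-MSCs, among 18992 genes. Female domestic pigs were 3 months old at the start and were fed for 16 weeks, Lean pigs on standard chow and Obese pigs on food rich in fat and fructose. Their MSCs were grown from subcutaneous abdominal fat, and Obese-MSCs were cultured untreated or with vitamin-C (needed by TET enzymes, which oxidize 5-methylcytosine to 5hmC) at 50 µg/mL for 48 h. hMeDIP-seq, in which an antibody captures DNA fragments with 5hmC for sequencing, gave 9 libraries, 3 in each of 3 groups. These are passaged primary cultures of each diet group, and whether a treated and an untreated culture came from 1 animal is not given by the labels.

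Toll-like receptors are membrane proteins of innate immunity whose leucine-rich repeats bind microbial molecules and whose cytoplasmic TIR domain recruits the adaptors MYD88 and TRIF (TICAM1). Those at the cell surface detect bacterial lipids and proteins, and those in endosomes detect nucleic acids. Signalling runs through IRAK kinases and TRAF6 to NF-κB and interferon regulatory factors, and in MSCs these receptors are known as modulators of immunosuppression and of cytokine release. The mark 5hmC is an oxidation product of 5-methylcytosine, and in gene bodies it often accompanies transcription, but it is not a measure of expression.

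Values were normalized counts of reads over the exons of a gene. Library totals ranged from 494566 to 522269 (Obese and Lean) and from 547242 to 593846 (treated and untreated). In 6 of the 12 columns, over 90% of values under 10 lay within 0.1 of a whole multiple of a step between 0.924 and 1.08 normalized counts, so in these libraries a value of 10 stood for about as many reads. Means of the 10 receptor genes over the 6 libraries of a table ranged from 2.93 (TLR10) to 22.0 (TLR2) normalized counts in the first and from 2.15 to 24.8, for the same genes, in the second, which is a shallow depth. Exon lengths were not used here, so levels were compared between groups for each gene and not between genes. The same untreated Obese libraries stand in both tables with receptor values a median of 1.11 times as high in the second, so groups were compared within a table. As a check of cell identity, the MSC surface marker genes NT5E, THY1 and ENG had group means between 17.1 and 64.0 normalized counts. Of the genes whose proteins MSCs lack, CD14 had group means between 0 and 2.83, while PTPRC had 46.9 to 59.3 and CD34 17.8 to 20.8. 5hmC is not expression, so these values cannot show which cells carried the receptors. The summed MSC markers (NT5E, THY1, ENG) ranged from 94.8 to 123 in Obese and from 80.1 to 88.4 in Lean libraries, without overlap. Of these genes, ENG alone separated Obese from Lean libraries by itself, as 11.8% of all genes did. ENG did not meet the study's criteria, and the sums were not tested. With vitamin-C the sums ranged from 86.5 to 125, and without it from 104 to 139. The sums of CD14, CD34 and PTPRC ranged from 60.6 to 71.6 in Obese and 66.9 to 89.4 in Lean libraries, and from 68.0 to 91.5 with and 68.7 to 78.7 without vitamin-C. The summed macrophage markers (CSF1R, CD68, CD163, ITGAM, ADGRE1) ranged from 104 to 183 in Obese and from 143 to 147 in Lean libraries, and from 139 to 187 with and 114 to 203 without vitamin-C. Of these 5 genes, 0 met the study's criteria for Obese and Lean, where 4.50% of all genes did. With vitamin-C 1, ADGRE1, was low, where 1.92% of all genes met the criteria. ADGRE1 was also lower in Obese libraries (12.3, 17.1 and 14.2) than in Lean libraries (31.4, 18.9 and 22.6). These did not overlap, as in 11.8% of all genes. The summed endothelial markers (PECAM1, CDH5, VWF) ranged from 177 to 197 in Obese and 126 to 204 in Lean libraries. They ranged from 162 to 195 with and 201 to 219 without vitamin-C, also without overlap. CDH5 alone among them separated these libraries by itself, as 5.91% of all genes did, and it did not meet the criteria. PECAM1, the largest part of the sum, overlapped, and VWF was slightly higher with vitamin-C, at a ratio of 1.04. Adipocyte markers ranged from 110 to 128 in Obese and 99.7 to 139 in Lean libraries, and from 118 to 129 with and 124 to 142 without vitamin-C. The part of these marker sums in the receptor values was not tested.

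The genomic positions below are from RefSeq for Sscrofa11.1. TLR10 (chromosome 8, 30124895 to 30134854), TLR1 (30147600 to 30155454) and TLR6 (30159744 to 30180650) form a cluster of 55.8 kb, in which 4289 bp separate TLR1 from TLR6. These genes arose by duplication and are similar in sequence, so assignment of short reads among them is uncertain, and RefSeq also gives TLR6 as a synonym of TLR1 and TLR7 as one of TLR8. TLR2 lies farther along chromosome 8 (75416257 to 75428370). TLR4 is on chromosome 1 (258044610 to 258054641), TLR5 on chromosome 10 (19387666 to 19410024), TLR3 on chromosome 15 (46966262 to 46977774) and TLR9 on chromosome 13 (34353444 to 34370990). TLR7 (X, 9573178 to 9576987) lies wholly within the annotated span of TLR8 (X, 9551284 to 9616762), and TLR9 shares 9697 bp of its span with TWF2. TWF2 had at most 1.85 normalized counts in a library. Reads over exons that overlapping genes share could not be separated in these values.

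Obese-MSCs were set against Lean-MSCs to ask whether diet-induced obesity went with altered 5hmC at these receptors. None of the 10 genes met the criteria of the study's methods for a differential gene, which are a two-sided equal-variance test at 0.05 or less combined with a fold between group means of 1.4 or more, or of 0.7 or less. The same limits were applied here to the deposited values of every gene, with no filter on low values. They called 4.50% of all genes (2.07% high and 2.43% low). The paper reports more genes in each direction, so the calls made here are not the study's own list. A ratio beyond these limits, with no test, was seen in 3 of the 10 (TLR6, TLR8 and TLR10), against a background of 29.4% of all genes, low ones included. The p limit alone was passed by 0 of the 10, against 6.04%. In no member did the Obese and Lean libraries separate without overlap, as they did in 11.8% of all genes (5.70% higher and 6.06% lower in Obese). With limma, 0 of the 9 members tested had a Benjamini-Hochberg adjusted p of 0.05 or less, 0 had an unadjusted p of 0.05 or less, and the background was 0% and 6.81%. The smallest limma adjusted p among them was 0.825, with a range of 0.741 to 0.967 over 12 alternatives. Over the 10 members the median log2 ratio of Obese to Lean means was -0.13, beside 0.01 over the 16416 genes with a ratio, with 4 members above 0 and 6 below.

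**Figure D1:**
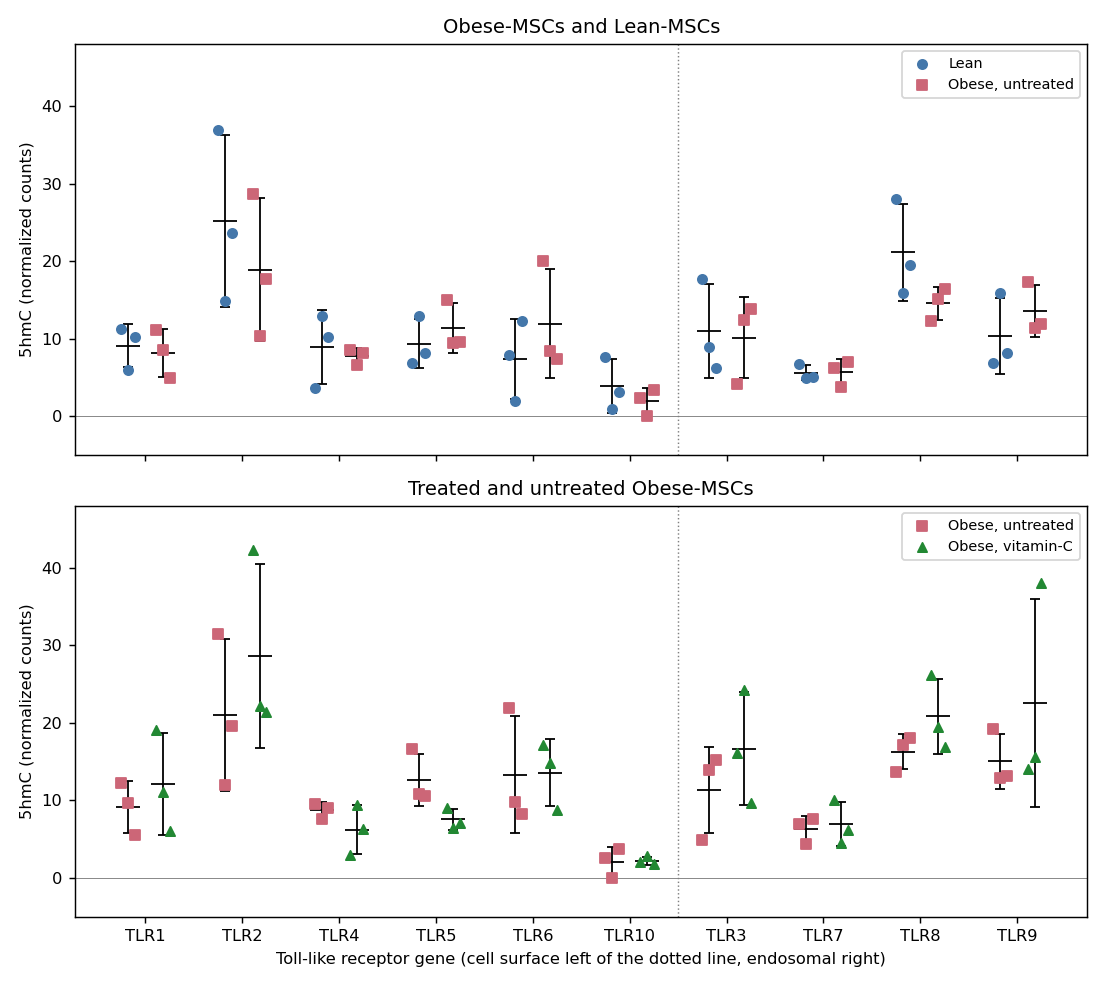
5hmC in normalized counts (vertical axis) for each Toll-like receptor gene (horizontal axis) in each library, with Lean and untreated Obese libraries above and untreated and vitamin-C-treated Obese libraries, normalized separately, below. Points are libraries, and the bars give the mean ± SD (n = 3). The groups overlap for all genes except TLR5 in the lower panel, where the treated libraries lie between 6.45 and 9.05 and the untreated between 10.6 and 16.6.

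Among receptors of the cell surface, TLR2, which binds bacterial lipoproteins together with TLR1 or TLR6, had 28.7, 10.3 and 17.7 normalized counts for Obese libraries 1 to 3 and 36.9, 14.9 and 23.6 in Lean libraries 7 to 9. Within each diet the libraries spanned more than a 2-fold range, and the groups overlapped. The means were 18.9 ± 9.24 and 25.1 ± 11.08 (SD, n = 3 each), a ratio of 0.752 (exact permutation test, p = 0.6). TLR1 had 11.12, 8.53 and 4.93 normalized counts across Obese libraries and 11.2, 5.95 and 10.3 across Lean libraries, with a ratio of means of 0.896. TLR6 had 20.1, 8.46 and 7.34 across Obese libraries and 7.90, 1.97 and 12.3 across Lean libraries. Its ratio of 1.62 was the highest among the members and rested on Obese library 1. Without that library the log2 ratio of TLR6 was 0.10 instead of 0.70, without Lean library 8 it was 0.25, and without Lean library 9 it was 1.28. TLR10, which pairs with TLR2 and for which a ligand is less well established, had 2.37, 0 and 3.42 normalized counts in the Obese and 7.69, 0.986 and 3.09 in the Lean libraries. These are values of few reads, with a log2 ratio of -1.02 that was -0.08 without Lean library 7, and its level was too low for the limma fit.

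TLR4, the receptor for bacterial lipopolysaccharide, had 8.60, 6.61 and 8.23 normalized counts across Obese libraries against 3.62, 12.9 and 10.3 in the Lean libraries. The Obese libraries lay inside the Lean range, at means of 7.81 ± 1.06 and 8.93 ± 4.79 (SD, n = 3 each; exact permutation test, p = 0.8). TLR5, the receptor for bacterial flagellin, had 15.1, 9.44 and 9.54 in the Obese and 6.91, 12.9 and 8.23 in the Lean libraries, a ratio of 1.21. Obese library 1 stood above the other Obese libraries at TLR5, and without it the log2 ratio of 0.28 was 0.02.

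Among the endosomal receptors, TLR8, a sensor of single-stranded RNA, had 12.3, 15.2 and 16.4 normalized counts in the Obese and 28.0, 15.9 and 19.5 in the Lean libraries. Only the highest Obese library exceeded the lowest Lean library. The means were 14.6 ± 2.12 and 21.1 ± 6.22 (SD, n = 3 each), a ratio of 0.691, below the limit of 0.7, and the log2 ratio of -0.53 ranged from -0.70 to -0.28 when single libraries were left out. The exact permutation test gave p = 0.2, and limma gave an adjusted p of 0.825. TLR7, the other sensor of single-stranded RNA, had 6.26, 3.75 and 6.98 in the Obese and 6.73, 4.96 and 5.14 in the Lean libraries, with a ratio of 1.01. TLR3, which binds double-stranded RNA and signals through TRIF, had 4.22, 12.4 and 13.9 normalized counts in the Obese and 17.8, 8.93 and 6.21 in the Lean libraries. Both groups of TLR3 held a library far from the other two, and the log2 ratio of -0.11 was 0.42 without Lean library 7. TLR9, which detects unmethylated CpG DNA, had 17.4, 11.3 and 11.9 in the Obese and 6.94, 15.9 and 8.24 in the Lean libraries, a ratio of 1.31 (exact permutation test, p = 0.4).

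The comparison of vitamin-C-treated with untreated Obese-MSCs asked whether the mark at these genes responded to added vitamin-C, a TET cofactor. The paper states that its growth medium already held some vitamin-C, so its effect may be understated. None of the 10 receptor genes met the same criteria, where 1.92% of all genes did (1.11% high and 0.806% low). The p limit alone was passed by 0 of the 10, against 2.64%. The ratio limits alone were passed by TLR3, TLR5 and TLR9, 3 of the 10, against a background of 21.7% of all genes, low ones included. Treated and untreated libraries did not overlap in 1 member, TLR5, lower with vitamin-C, and in 5.91% of all genes (2.67% lower and 3.24% higher). With limma, 0 of the 9 members tested passed an adjusted p of 0.05, 0 passed an unadjusted p of 0.05, and the background was 0% and 0.974%. The median log2 ratio of treated to untreated means was 0.35 over the 9 members with a ratio, beside 0.01 over 16741 genes, with 7 above 0 and 2 below. Without treated library 4 this median was -0.089, and it was 0.16 without untreated library 2.

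TLR5 had 9.05, 6.45 and 7.14 normalized counts in treated libraries 4 to 6 and 16.6, 10.8 and 10.6 in untreated libraries 1 to 3. Every treated library lay below every untreated library, with means of 7.54 ± 1.35 and 12.6 ± 3.41 (SD, n = 3 each). The ratio was 0.597, with p = 0.1 in the exact permutation test, which cannot go lower with 3 libraries against 3. The p-value criterion was missed on the deposited values and met by the same test on log2(value + 1). In limma the difference was -0.66 with an SE of 0.37 on the log2(value + 1) scale, an unadjusted p of 0.0936 and an adjusted p of 1.00. The log2 ratio of -0.74 ranged from -0.90 to -0.50 when single libraries were left out. At 6 to 17 normalized counts per library, the counting error alone is a sizeable part of each value. In the table with Lean-MSCs the untreated libraries had a TLR5 ratio of 1.21 to Lean, as given above, and the comparisons share these untreated libraries.

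TLR4 had 3.02, 9.34 and 6.26 normalized counts with vitamin-C and 9.53, 7.54 and 9.06 without. The highest treated library reached the untreated range, at means of 6.21 ± 3.16 and 8.71 ± 1.04 (SD, n = 3 each; exact permutation test, p = 0.3). TLR2 had 42.2, 22.1 and 21.3 in the treated and 31.4, 11.9 and 19.5 in the untreated libraries, a ratio of 1.36. Its highest treated value came from library 4, without which the log2 ratio of 0.45 was 0.05. TLR1 had 19.1, 11.08 and 6.09 in the treated and 12.2, 9.65 and 5.52 in the untreated libraries, and its log2 ratio of 0.40 was -0.089 without the same library 4. TLR6 had 17.1, 14.8 and 8.81 against 22.0, 9.73 and 8.19, a ratio of 1.02. TLR10 had 2.01, 2.79 and 1.76 against 2.61, 0.0327 and 3.70 normalized counts, with both means below 3, so no ratio was taken.

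All 4 endosomal receptors had a ratio of treated to untreated means above 1, as did TLR1, TLR2 and TLR6 of the cell surface. TLR3 had 16.1, 24.2 and 9.66 normalized counts in the treated and 4.94, 13.9 and 15.2 in the untreated libraries, a ratio of 1.47 with overlapping groups (exact permutation test, p = 0.4). TLR8 had 26.1, 19.4 and 16.9 against 13.7, 17.1 and 18.01, a ratio of 1.28 that stayed above 1 with each library left out. TLR7 had 10.1, 4.56 and 6.23 against 6.93, 4.34 and 7.65, a ratio of 1.10. Its log2 ratio of 0.14 ranged from -0.23 to 0.37 when single libraries were left out. TLR9 had 14.1, 15.6 and 38.0 in the treated and 19.2, 12.9 and 13.1 in the untreated libraries. Treated library 6 carried this ratio of 1.498, and without it the log2 ratio of TLR9 was -0.02 instead of 0.58. Summed over these 4 genes, the treated libraries had 66.4, 63.8 and 70.8 normalized counts and the untreated libraries 44.8, 48.3 and 54.0. These sums did not overlap, and the highest single contribution came from TLR8 in library 4, TLR3 in library 5 and TLR9 in library 6. The grouping was made with the values known and was not tested, and no share over all genes was taken for such sums. The other sums overlapped. For the 6 receptors of the cell surface they were 92.5, 66.6 and 51.4 with and 94.3, 49.7 and 56.6 without vitamin-C, and for all 10 members 159, 130.4 and 122 with and 139, 98.0 and 110.5 without. In Obese and Lean libraries the endosomal sums also overlapped, at 40.1, 42.6 and 49.1 against 59.4, 45.7 and 39.1.

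**Figure D2:**
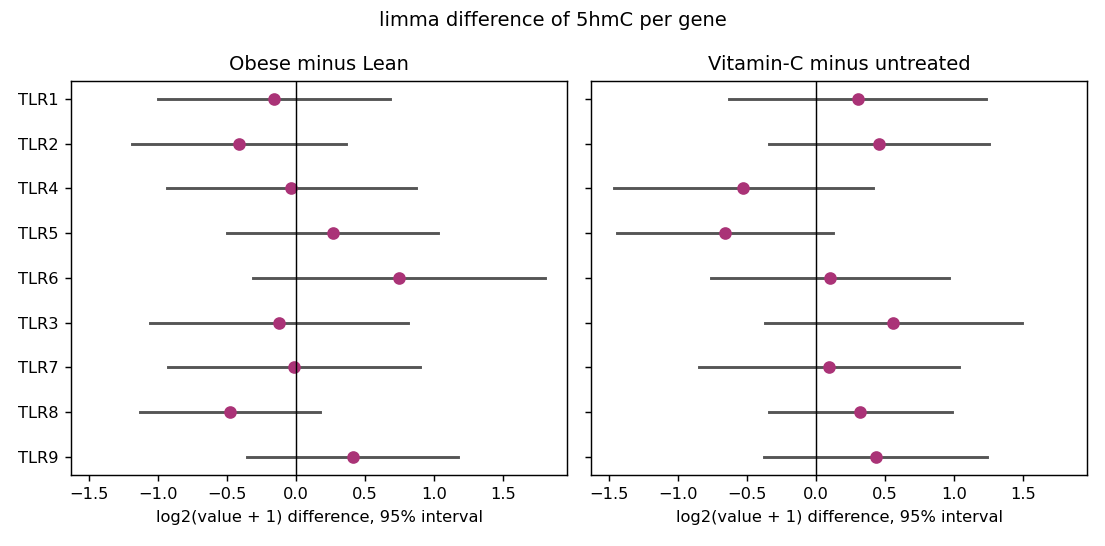
Difference between groups on the log2(value + 1) scale (horizontal axis) for each of the 9 Toll-like receptor genes tested in limma (vertical axis), Obese minus Lean on the left and vitamin-C-treated minus untreated Obese on the right. Points are limma estimates and lines are 95% intervals, all of which include 0. The TLR5 estimate on the right is -0.66.

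The limits of these data for the receptor genes are shown by the intervals in the plot of limma differences. Over the 9 members the 95% intervals reached a 2-fold difference, converted to the log2(value + 1) scale at the mean of each gene, in at least 1 direction for 9 of 9 genes in each comparison. For each of them, a difference of this size in at least 1 direction was therefore not excluded. Only for TLR7 did the intervals reach both a doubling and a halving. For every other gene 1 of these lay outside the 95% interval in each comparison. The SE of the difference ranged from 0.31 to 0.50 on the log2(value + 1) scale for Obese and Lean and from 0.31 to 0.44 for vitamin-C, beside medians over all tested genes of 0.33 and 0.34. Within groups the variance of a receptor gene over its mean had a median of 1.44 in the first table and 1.73 in the second. For the 9487 and 10670 genes in the same range of means it was 1.07 and 1.21. Counting error alone gives about 1 for whole reads, which these values are not in every library, so 1 is only a rough reference. TLR2 (4.73 and 4.78) was the most variable member in the first table and TLR9 (5.09) in the second. The least variable were TLR7 (0.339) in the first table and TLR5 (0.667) in the second.

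**Figure D3:**
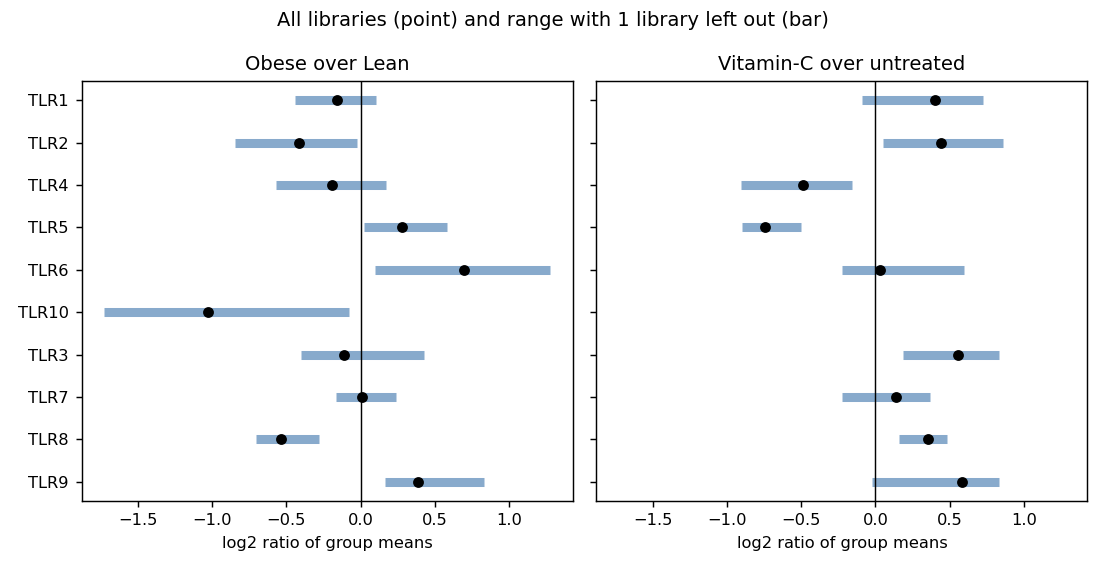
Log2 ratio of group means (horizontal axis) for each Toll-like receptor gene (vertical axis) with all libraries (points) and its range when 1 library at a time is left out (bars), Obese over Lean on the left and vitamin-C-treated over untreated Obese on the right. The bars keep to 1 side of 0 for 6 of 10 genes on the left and 5 of 9 on the right, where TLR10 has no ratio because both means are below 3.

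The libraries with the lowest number of each group, Obese 1, Lean 7 and treated 4, had the highest TLR2 and TLR1 values of their group in both tables. These libraries also had the highest total of normalized counts in their group, at 522269 and 507497 in the first table and, for treated library 4, 593846 in the second. The part of library totals in the TLR2 values was not tested. TLR4 was at its lowest of all libraries in Lean 7 and, in the second table, in treated 4. By the measure of the smaller of the 2 Pearson correlations of log2(value + 1) over the 6 libraries of each table, the genes most like TLR2, the member with the highest mean, were RGS2 (0.94 and 0.96), LOC100511352 (0.96 and 0.94) and CNBP (0.93 and 0.93) among 9122 genes. The tables share the untreated libraries and 8 genes exceeded 0.9 in both, so this is a description of these libraries.

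Of genes that act with the receptors (co-receptors, chaperones, signalling proteins, inhibitors and targets) and of other innate sensors, 83 of 85 listed were in the first table, and 3 met the study's criteria, all higher in Obese-MSCs (3 of 83, where 4.50% of all genes were called in either direction). The libraries did not overlap in 9 of the 83 (CD14, LY86, IKBKB, IRAK3, SIGIRR, CYLD, CXCL10, NLRP3 and ZBP1), where 11.8% of all genes did not. With limma, 70 were tested, not including CXCL10, and 0 passed an adjusted p of 0.05. An unadjusted p of 0.05 or less was reached by 2 (NLRP3 and IKBKE), where 6.81% of all tested genes reached it. NLRP3, the sensor of the inflammasome that matures interleukin-1β, had 49.7, 51.2 and 52.9 in Obese-MSC libraries and 31.7, 33.8 and 37.0 in the Lean libraries. The groups stood well apart, with a ratio of 1.501 and a log2 ratio of 0.59 that lay between 0.54 and 0.65, and the criteria were met with each of the 6 libraries left out. Adjusted over all genes, limma gave 0.7005 for NLRP3 (exact permutation test, p = 0.1). With vitamin-C NLRP3 had 62.4, 49.9 and 55.5 against 55.3, 57.9 and 58.2 without, a ratio of 0.979. IKBKB, the kinase subunit that releases NF-κB from its inhibitor, had 24.2, 23.7 and 16.7 in the Obese and 14.7, 14.9 and 13.4 in the Lean libraries, a ratio of 1.51. CXCL10, a chemokine gene induced by interferon, had 4.61, 4.73 and 5.84 against 1.20, 1.98 and 4.09 normalized counts. IKBKB and CXCL10 each met the criteria with 1 of the 6 libraries left out and missed them with the others.

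By role, no gene of the 13 accessory proteins and chaperones, the 7 adaptors, the 9 transcription factors or the 10 inhibitors in the first table met the criteria in Obese-MSCs. The genes that did were 1 of 19 kinases and ligases, 1 of 12 target genes and 1 of 13 other pattern recognition receptors. The 8 inhibitors with a ratio all had a log2 ratio above 0 (median 0.19, from 0.06 to 0.55). The share of all genes above 0 was not counted. In limma, NFKBIA lay slightly below 0 (-0.04) and the other inhibitors tested lay above 0. The 6 adaptors had a median of -0.16. Over all 73 listed genes with a ratio the median was 0.13, with 47 above 0 and 26 below, beside a median of 0.01 over 16416 genes. Target genes (median 0.19) and transcription factors (0.20) lay as high as the inhibitors. The groups did not overlap for 3 of the 10 inhibitors, where 11.8% of all genes did not. IRAK3, a kinase homologue that restrains IRAK signalling, had 60.5, 36.9 and 39.1 against 32.8, 30.8 and 32.9 normalized counts, and CYLD, a deubiquitinase, had 30.9, 31.2 and 44.4 against 30.3, 16.9 and 25.7. SIGIRR, an inhibitory receptor, had 1.46, 1.88 and 3.44 against 1.12, 0 and 1.03, with both means below 3. These inhibitors did not meet the criteria and were named after their values were seen. MYD88, the adaptor of nearly all Toll-like receptors, had 4.88, 0.909 and 2.40 across Obese libraries and at most 1.02 in a Lean library. CD14, a TLR4 co-receptor, had 0.650, 0.924 and 4.49 across Obese libraries and 0 in each of the Lean libraries. In this table both group means of MYD88 and of CD14 were below 3, so no ratio was taken.

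With vitamin-C, 84 of the 85 genes were in the table, and 0 met the criteria or passed an adjusted p of 0.05 in limma, which tested 71 of them and gave 0 with an unadjusted p of 0.05 or less. The median log2 ratio over the 76 genes with a ratio was 0.00, with 39 above 0 and 37 below. Treated and untreated libraries did not overlap in 5 of the 84 (HSP90B1, LRRC59, SCIMP, TAB1 and NLRC4), where 5.91% of all genes did not, and these genes were named after their values were seen. LRRC59, which takes part in the transport of endosomal receptors, had 57.3, 60.2 and 60.9 normalized counts with vitamin-C and 46.7, 46.1 and 46.6 without. It passed the p limit alone, with a ratio of 1.28 under the limit of 1.4. TAB1, a partner of the kinase TAK1, had 8.05, 11.09 and 16.3 with and 6.04, 5.38 and 6.45 without, a ratio of 1.98 that missed the p limit. HSP90B1, a chaperone on which most of these receptors depend for folding, had 37.2, 38.0 and 35.8 with and 35.5, 30.1 and 27.4 without. SCIMP, an adaptor, had a ratio of 1.36, and NLRC4, an inflammasome protein, had a ratio of 0.724.

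**Figure D4:**
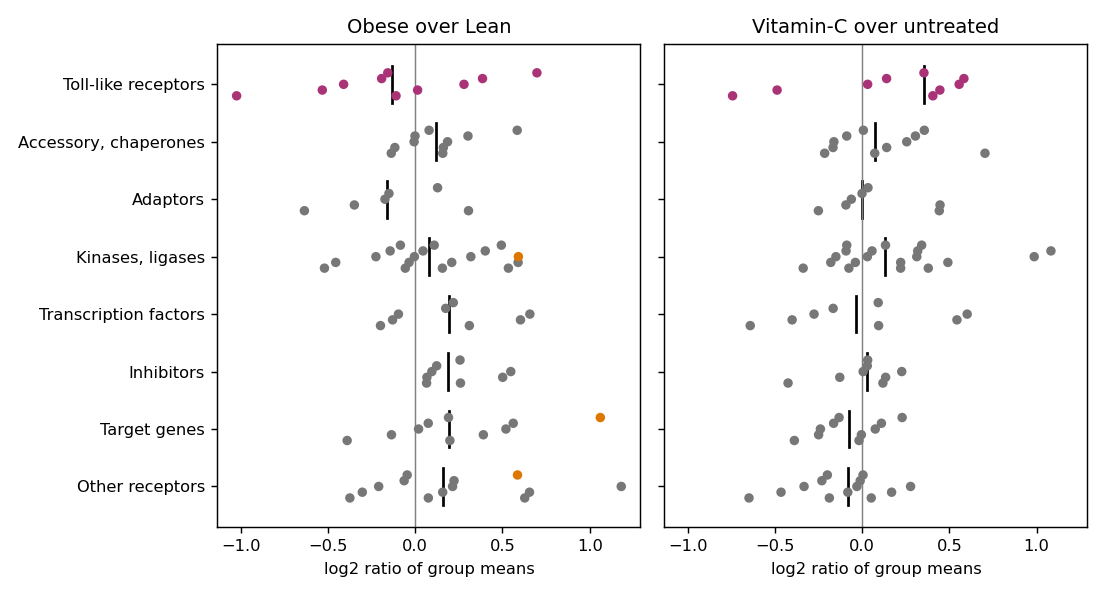
Log2 ratio of group means (horizontal axis) for the Toll-like receptor genes (purple) and for genes of the pathway lists (grey) by role (vertical axis), Obese over Lean on the left and vitamin-C-treated over untreated Obese on the right. Each point is a gene with at least 1 group mean above 3 normalized counts, orange points met the study's criteria, and vertical bars are list medians. The orange points are IKBKB, CXCL10 and NLRP3, and the receptor medians are -0.13 and 0.35.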

How the data were processed

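Normalized counts of 5hmC signal per gene were used as deposited by the authors for 9 swine hMeDIP-seq libraries. Per the paper's methods and the labels, the authors aligned paired 51 bp reads to susScr 11.1 with Bowtie 2 (2.3.3.1), removed duplicates with Picard (1.67), counted reads over exons with HTSeq (0.9.1) and processed the counts with edgeR (3.28.1). The annotation and the treatment of ambiguous reads are not given in the sources used here. Values are relative within a table, and whole reads could not be recovered for nearly all genes, so no count test was run and no counting interval is given. In the table of treated cells, 645 residual values under 1e-06 were set to 0.

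Groups were taken from sample titles. Both tests ran on every gene of a table: the study's criteria on the deposited values (which values the study itself tested is not given in the sources used here), and limma 3.58.1 (R 4.3.3) with a trend on log2(value + 1), which understates changes of low genes, for the 80% of genes with the highest means, adjusted by Benjamini-Hochberg over them. For single genes, all 20 arrangements of the libraries were permuted (exact, two-sided). The labels do not say that libraries are separate animals, so p-values measure the spread between these libraries. A ratio was not taken where both means were 3 or less. Python 3.11.15, numpy 2.4.6, pandas 2.3.3, scipy 1.17.1 and matplotlib 3.10.9 were used. The fits were tested on simulated data with large changes in genes at or above the median mean. Most receptor genes lie below it, so this does not show which changes could be found in them. Named genes were all members, the pathway genes that met the criteria, and the 3 genes most like the member with the highest mean. Marker genes, MYD88, CD14, IKBKE and the pathway genes whose groups did not overlap were named outside this rule, after their values were seen. The members and gene lists were chosen with earlier results of these data known. Levels per kilobase and sequences were not analysed here.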

Additional observations from a re-analysis of the deposited data

How the results depend on the processing

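The result that 0 receptor genes met the study's criteria in Obese-MSCs and 0 with vitamin-C held in every alternative for the first comparison (log2 values, a p limit of 0.01, no ratio limit, size factors, quantile normalization, unequal variances, each library left out), and in the second for all of these but the test on log2 values, which called 1, TLR5. No receptor gene passed limma at an adjusted p of 0.05 in any of 12 alternatives per comparison, of which the filter to the upper 50% by mean tested only 2 and 4 members. Without Lean replicate 9, TLR6 alone had an unadjusted limma p of 0.05 or less. The median log2 ratio over members ranged from -0.20 to 0.06 in the first comparison and from -0.089 to 0.37 in the second with 1 library left out. The value of -0.089 was without vitamin-C-treated replicate 4. The sign of the log2 ratio was kept under size factors and quantile normalization for 10 of 10 and 8 of 9 members (TLR6 was the exception). At a p limit of 0.01 the genes called in the whole table were 216 and 66 in place of 852 and 364. Of the pathway genes, 1 met the criteria in Obese-MSCs at a p limit of 0.01 and 1 with unequal variances, in place of 3. With vitamin-C, in place of 0, the count was 1 on log2 values, 1 with no ratio limit, and 0 to 2 with 1 library left out. The alternatives for pathway genes were chosen after seeing the data, and the cause of these changes was not tested. No paired analysis was made because the groups share no replicate numbers. The paper describes third-passage Obese-MSCs that were cultured further either untreated or with vitamin-C. Treated and untreated libraries may thus share animals, and the tests used here ignore any such pairing. Depth limits all values, with at most 42.2 normalized counts per receptor gene and library.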
